A study of Mus musculus with 3 samples.

Results

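Cohesin is a ring of the proteins SMC1A, SMC3 and RAD21 that holds sister chromatids together and extrudes chromatin loops. A STAG subunit, SA1 or SA2, docks on RAD21 and completes the complex. NIPBL and MAU2 load the ring onto DNA, WAPL releases it with the help of PDS5A and PDS5B, and CTCF stops it at loop anchors. The genes Smc1a, Smc3, Rad21, Stag2, Nipbl, Mau2, Wapl, Pds5a, Pds5b and Ctcf were followed here in mouse cells labelled as lacking SA1, the product of Stag1.

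The members were the array probes whose systematic name is a RefSeq transcript of 1 of these 10 genes in the RefSeq gene table of mouse assembly GRCm38.p6. This gave 12 of the 41174 probes on the array, from 7 of the 16535 genes that could be named. Smc1a, Smc3, Rad21, Stag2 and Wapl had 2 probes each, and Mau2 and Pds5b had 1 each. No probe was matched to Nipbl, Pds5a or Ctcf by this rule, and these 3 genes were not analysed here. Probes of a gene share its transcript and the same RNA, so they are not independent measurements. In what follows the brighter probe of a gene is its probe 1 and the dimmer its probe 2. Levels of different probes cannot be set against each other, because each probe binds with its own strength.

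The cultures labelled SA1-null and those labelled wild type (WT) were primary embryonic fibroblasts, connective tissue cells taken from mouse embryos at stage E12.5. They were kept in DMEM with 10% fetal bovine serum and were not treated. Each of 3 Agilent 2-colour arrays held 1 culture of each label, with 1 µg of RNA labelled per sample, the SA1-null label in Cy3 and the WT label in Cy5 every time. Dye and genotype therefore cannot be told apart. Replicates 1 to 3 are biological per the labels, which say neither how the Stag1 allele was disrupted nor which embryos gave the cells.

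Before the members, the targeted gene was read, and it went against the labels. Stag1 probe 1 read 1334, 1263 and 2029.5 units in the channel labelled SA1-null of replicates 1, 2 and 3, against 388, 161 and 167.5 units in the channel labelled WT. Its log2 ratio, SA1-null label over WT label, was 3.52 ± 0.21 (SD, n = 3, limma adjusted p = 0.0255). Probe 2 gave 3.53 ± 0.35 (limma adjusted p = 0.0255). Probe 3 was well above background in Cy5 on 2 of 3 arrays, so its log2 ratio of 2.17 ± 0.53 (limma adjusted p = 0.0681) holds 1 array with only a bound. That ratio was 3.58 with an offset of 0 and 4.49 with processed signals, where the probe passed (limma adjusted p = 0.00326 and 0.00302). Probe 4 never stood well above background in Cy5, so it has no fold here. The call of probe 1 ended without replicate 2 (log2 ratio 3.40, limma adjusted p = 0.171) and without replicate 3 (3.54, limma adjusted p = 0.433), each fitted on 2 arrays, and that of probe 2 ended in the same fits. All signs below are for the SA1-null label over the WT label, and every sign turns if the channel labels are exchanged.

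Across the whole array 77 of 24019 tested probes passed an adjusted p of 0.05 in limma, 3 higher (0.0125%) and 74 lower (0.308%) in the channel labelled SA1-null. The count was 319 without replicate 1, and 0 without replicate 2 or replicate 3 (1686 and 949 at an unadjusted p under 0.05). Well above background were 61.3% to 66.6% of non-control spots in Cy3 and 62.6% to 67.7% in Cy5, and the number of arrays limits the precision. Raw signals differed in scale between dyes: the median spot of the tested probes read 423.5, 250 and 422.5 units in Cy3 of replicates 1, 2 and 3, and 1510, 514 and 444 units in Cy5. The raw values given below therefore show brightness on each array, and only the normalised log2 ratios compare the labels. Replicate 1 was hybridised on 1 slide and replicates 2 and 3 on another.

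No cohesin member probe passed the test. Each of the 12 spots stood well above background in Cy3 and in Cy5 of every array. In limma 0 of 12 passed the threshold, where 0.321% of all probes did. At an unadjusted p under 0.05 there was 1 of 12, Smc3 probe 2, where 7.37% of all probes reached that level. The 12 mean log2 ratios lay between -0.25 and 0.50, and their limma adjusted p between 0.662 and 0.960. The 95% intervals of the fit reached at most 1.63-fold lower, for Rad21 probe 1, and 2.44-fold higher, for Smc1a probe 2. All 12 intervals thus ended short of the 11.4-fold difference of Stag1 probe 1, but they do not exclude smaller differences within them. The mean log2 ratio was under 0.5 in size for 11 of the 12 and for 87.3% of all tested probes.

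**Figure D1:**
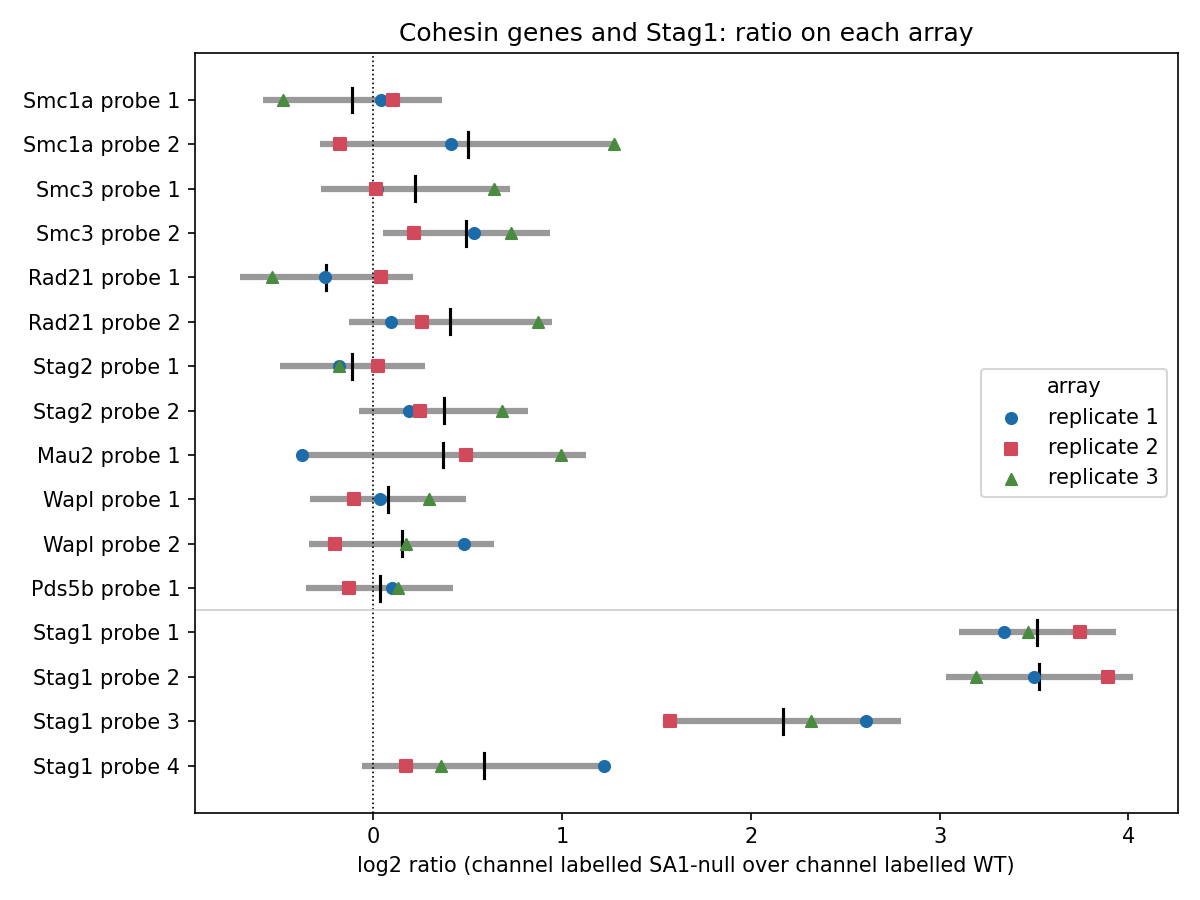
Log2 ratio of the SA1-null label over the WT label (x axis) for each member probe and each Stag1 probe. Points are the 3 arrays, black ticks their mean and grey bars the 95% interval of the limma fit. The 12 member means lie between -0.25 and 0.50, while Stag1 probes 1 and 2 lie at 3.52 and 3.53.

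Among the ring subunits, Smc1a encodes 1 of the paired ATPase arms. Its probe 1 read 5551.5, 5489 and 5315 units in the channel labelled SA1-null, against 18116, 10400 and 9485 units in the channel labelled WT. The log2 ratios were 0.04, 0.11 and -0.48 on replicates 1, 2 and 3, a mean of -0.11 ± 0.32 (SD, n = 3, limma adjusted p = 0.886). Replicate 3 alone was clearly below 0. Probe 2 read 239, 101 and 414 units in the channel labelled SA1-null, against 546, 213.5 and 178 units in the channel labelled WT. Its log2 ratios were 0.41, -0.17 and 1.27, with a mean of 0.50 ± 0.73 (limma adjusted p = 0.718). On replicate 3 it was therefore high where probe 1 was low.

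Smc3 encodes the other ATPase arm of the ring, whose acetylation stabilises cohesin on DNA. Probe 1 read 2195.5, 1310 and 3518 units in the channel labelled SA1-null, against 7105, 2603 and 2589 units in the channel labelled WT. Its log2 ratios were 0.02, 0.01 and 0.64, a mean of 0.22 ± 0.36 (SD, n = 3, limma adjusted p = 0.766), so that only replicate 3 stood off from 0. Probe 2 read 150.5, 64 and 168 units in the channel labelled SA1-null, against 297.5, 100.5 and 116 units in the channel labelled WT. Its log2 ratios of 0.53, 0.21 and 0.73 were above 0 on all 3 arrays. The mean was 0.49 ± 0.26, with a 95% interval of 0.05 to 0.94, an unadjusted p of 0.0354 and a limma adjusted p of 0.662. This probe was dim, with 64 units over a background of 32 in Cy3 of replicate 2, and its mean depended on the processing. It was 0.76 with an offset of 0, 0.98 with processed signals and 0.33 with array weights (limma adjusted p = 0.343, 0.182 and 0.657). Smc3 was the member gene whose 2 probes were both above 0 on all 3 arrays.

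Rad21 encodes the kleisin that closes the ring and is cut at anaphase. Probe 1 read 9547, 8411.5 and 7875 units in the channel labelled SA1-null, against 39099.7, 17017.5 and 15478 units in the channel labelled WT. The log2 ratios were -0.25, 0.04 and -0.53, with a mean of -0.25 ± 0.29 (SD, n = 3, limma adjusted p = 0.729), the lowest of the 12. Probe 2 read 430, 397 and 1650 units in the channel labelled SA1-null, against 1276, 656.5 and 946 units in the channel labelled WT. Its log2 ratios were 0.10, 0.26 and 0.87, a mean of 0.41 ± 0.41 (limma adjusted p = 0.710). The sign of the Rad21 difference thus turned with the probe.

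Stag2 encodes SA2, which takes the place of SA1 in the other form of somatic cohesin. Probe 1 read 1030, 712 and 1076 units in the channel labelled SA1-null, against 3784.5, 1400 and 1283 units in the channel labelled WT. Its log2 ratios were -0.18, 0.03 and -0.18, and the 95% interval of the mean ran from -0.50 to 0.27, or 0.709-fold to 1.21-fold. This probe had the smallest spread of the 12, at an SD of 0.12. Probe 2 read 320, 212.5 and 552 units in the channel labelled SA1-null, against 862, 341.5 and 355 units in the channel labelled WT. Its log2 ratios were 0.19, 0.25 and 0.68, with an interval of -0.07 to 0.82 and a limma adjusted p of 0.710. It was above 0 on every array, and the probes again opposed each other. Stag1 probe 1 exceeded Stag2 probe 1 by log2 ratios of 3.52, 3.72 and 3.65 on the 3 arrays, a difference between ratios and not between transcript levels.

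Smc1a and Stag2 are X-linked, so probes of the Y chromosome and of Xist, the RNA of X inactivation, were read beside them. All 5 probes of the Y-linked genes Ddx3y, Eif2s3y, Kdm5d and Uty were well above background in both channels of replicate 1. On replicates 2 and 3, 0 of 5 were well above background in either channel. The log2 ratios of these probes on replicate 1 lay between -0.55 and 0.17. Xist read 24, 39 and 48 units in the channel labelled SA1-null, against 60, 83 and 72 units in the channel labelled WT, well above background in neither channel of replicate 1, in Cy5 of replicate 2 and in both channels of replicate 3. Both cultures of an array thus gave the same Y-linked pattern, and replicate 1 differed in it from the others.

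**Figure D2:**
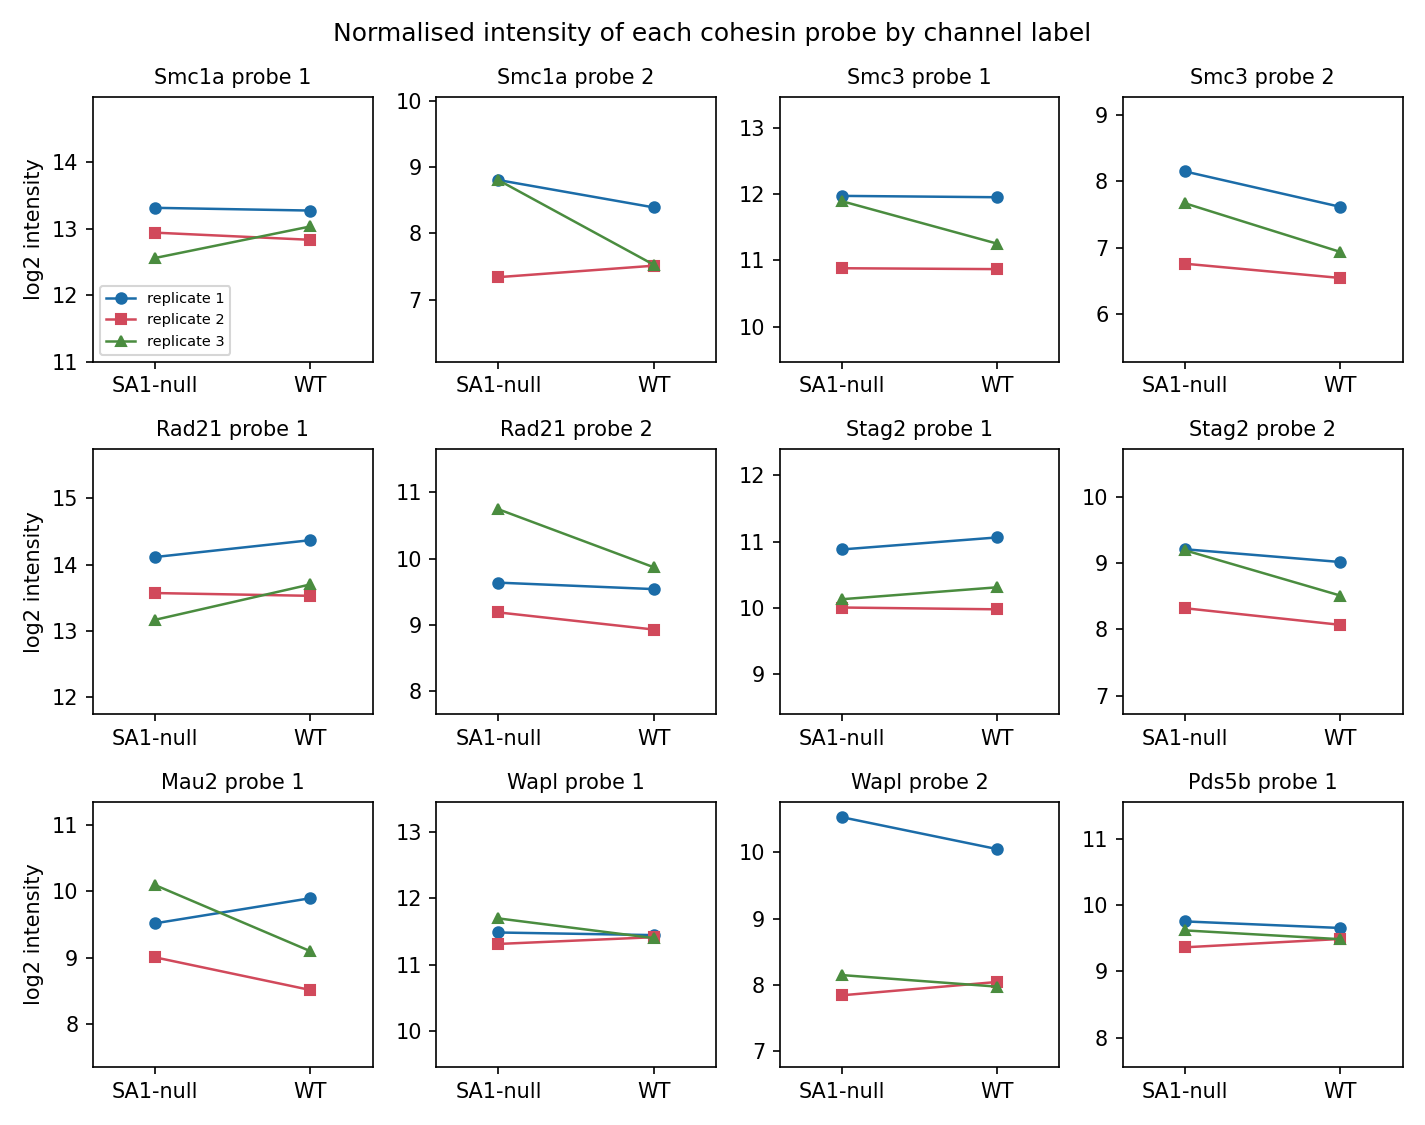
Normalised log2 intensity (y axis) of the 12 member probes in the channel labelled SA1-null (left) and the channel labelled WT (right), with the 2 channels of an array joined by a line. Every panel spans the same height, and the lines of the 3 arrays run in differing directions for 8 of the 12 probes.

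Of the loading pair, Mau2 was measured. It encodes the partner that stabilises the loader NIPBL. Its probe read 393, 350 and 1058 units in the channel labelled SA1-null, against 1633, 489 and 539 units in the channel labelled WT. The log2 ratios were -0.38, 0.49 and 1.00 on replicates 1, 2 and 3. The array of slide 1 was below 0 and both arrays of slide 2 were above it, with a mean of 0.74 on slide 2. Replicate 1 also differed from the others in its Y-linked signal and in the version of the Agilent software. These cannot be told apart from slide. Over the 3 arrays the Mau2 mean was 0.37 ± 0.70 (SD, n = 3, limma adjusted p = 0.750). The interval, 0.765-fold to 2.19-fold, was among the widest of the members.

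Wapl encodes the factor that opens the ring and lets cohesin leave chromatin. Probe 1 read 1568, 1776 and 3079 units in the channel labelled SA1-null, against 4973.5, 3819.5 and 2870 units in the channel labelled WT. The log2 ratios were 0.04, -0.10 and 0.30, a mean of 0.08 ± 0.20 (SD, n = 3, limma adjusted p = 0.909). Probe 2 read 810, 148 and 251 units in the channel labelled SA1-null, against 1848, 334.5 and 242 units in the channel labelled WT. It was brighter on replicate 1 than on the other arrays in both channels, which probe 1 was not in Cy3. Its log2 ratios of 0.48, -0.20 and 0.17 gave a mean of 0.15 ± 0.34 (limma adjusted p = 0.842). Both Wapl means lay closer to 0 than their SD.

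Pds5b encodes a HEAT-repeat protein that works with WAPL in release and also helps to protect cohesion. Its probe read 467, 445 and 749 units in the channel labelled SA1-null, against 1377, 971 and 709.5 units in the channel labelled WT. The log2 ratios were 0.10, -0.13 and 0.13, with a mean of 0.04 ± 0.14 (SD, n = 3, limma adjusted p = 0.960). This mean was the nearest to 0 among the members, and its 95% interval ran from 0.782-fold to 1.34-fold.

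The 2 probes of a gene often disagreed. For Smc1a, Rad21 and Stag2 the means had opposite signs, 3 of 5 genes, while 27.9% of the 3191 genes with 2 tested probes had opposite signs. The dimmer probe had the higher mean ratio in 5 of 5 member genes and in 65.3% of all such genes. Probe 1 minus probe 2 averaged -0.66 ± 0.65 for Rad21, -0.61 ± 1.04 for Smc1a and -0.49 ± 0.33 for Stag2 (SD, n = 3). It averaged -0.27 ± 0.22 for Smc3 and -0.07 ± 0.32 for Wapl. The median size of this difference was 0.49 in the 5 member genes and 0.15 over all genes with 2 tested probes. The smallest two-sided p of an exact sign-flip test over 3 arrays is 0.25, so the disagreement of a single gene was not tested further.

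Replicate 3 carried the largest of these disagreements. There the differences were -1.75 for Smc1a, -1.41 for Rad21 and -0.86 for Stag2, while Smc3 and Wapl stood at -0.09 and 0.12. On replicate 1 all 5 differences lay between -0.51 and -0.35, and on replicate 2 between -0.22 and 0.28. The median size over all genes with 2 tested probes was 0.32 on replicate 3, 0.23 on replicate 1 and 0.13 on replicate 2. Replicate 3 was thus the array on which probes of a gene disagreed most both among the members and over the array, and what part this had in the members' values was not tested.

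**Figure D3:**
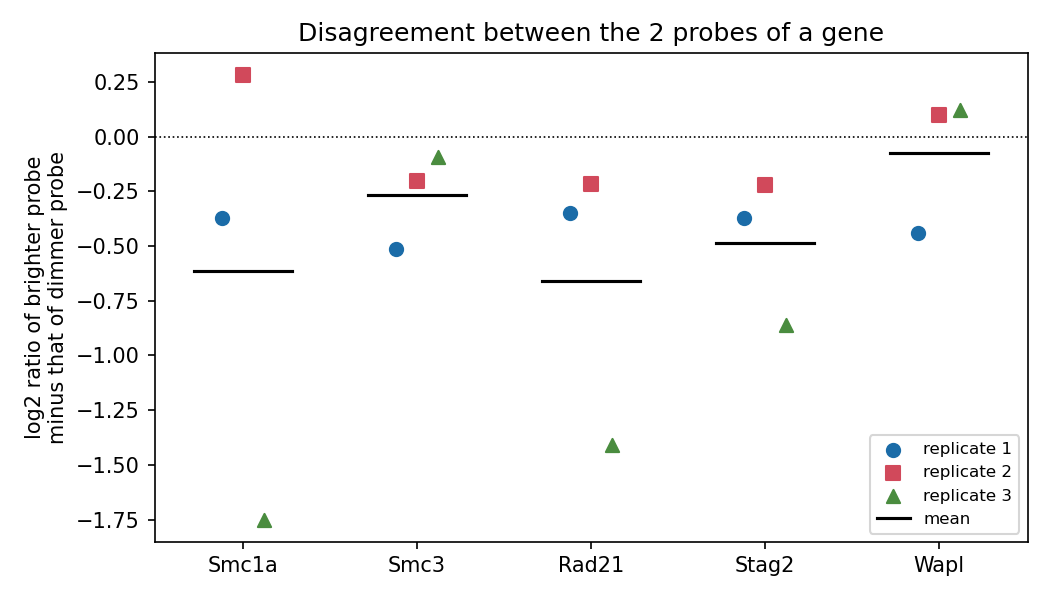
Log2 ratio of the brighter probe minus that of the dimmer probe (y axis) for the 5 member genes with 2 probes. Points are the 3 arrays and bars their mean. Replicate 3 lies at -1.75 for Smc1a and -1.41 for Rad21, below the other arrays.

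With the probes of each gene averaged, all 7 member genes had means above 0, where the median over all genes and transcripts was -0.014. With the brightest probe alone 4 of 7 were above 0. The gene means were 0.20 ± 0.22 for Smc1a, 0.36 ± 0.30 for Smc3, 0.08 ± 0.14 for Rad21 and 0.13 ± 0.12 for Stag2 (SD, n = 3). Wapl averaged 0.11 ± 0.23, and Mau2 and Pds5b kept the values of their single probes. In limma over 18488 genes and transcripts none of the 7 member genes passed, where 0.26% of all did, the smallest adjusted p being that of Smc3 (0.689). For Stag2 the interval of the gene mean ran from 0.851-fold to 1.41-fold, and for Rad21 from 0.818-fold to 1.37-fold. The 7 genes thus had intervals that include no change.

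As a group, the members lay slightly above 0. Their median log2 ratio was 0.19, against -0.0038 over all tested probes, and 9 of 12 means were above 0, against 49.3% of all tested probes. These 12 count 5 genes by 2 probes each. With the brightest probe of each gene the median was 0.04 and 4 of 7 were above 0, and with array weights the median of the 12 was 0.06. Above 0 on all 3 arrays were 4 of the 12, both Smc3 probes, Rad21 probe 2 and Stag2 probe 2, where 15% of all probes were. Below 0 on all 3 arrays were 0 of the 12, where 17.3% of all probes were. The array medians of the members were 0.07, 0.03 and 0.47 on replicates 1, 2 and 3, and without replicate 3 the median of the 12 was 0.07. The median size of the difference was 0.24 for the members and 0.17 for all probes, and the median SD over arrays was 0.30 and 0.31. With median centring in place of loess the members' median turned to -0.16, which was 0.10 above the median of all probes there (-0.26).

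Other genes of the cohesin pathway were read from gene lists, with every matched probe counted. Of the 19 listed regulators and meiotic subunits of cohesin, 16 had a tested probe. Of their 24 tested probes 2 passed, both of Stag1 and both higher in the channel labelled SA1-null. The remaining 22, among them Stag1 probes 3 and 4, did not pass, and the median of the list was 0.01. At an unadjusted p under 0.05 in limma there were 3 of the 24, Stag1 probes 1, 2 and 3. Of 14 listed genes of condensin, which compacts mitotic chromosomes, and of the SMC5/6 complex, which acts in DNA repair, 11 were tested with 16 probes, and 0 passed in either direction (0 at an unadjusted p under 0.05). The condensin arm gene Smc2 had the smallest p there, with 4 probes between 0.03 and 0.43, followed by the SMC5/6 arm gene Smc6 (0.32 ± 0.30) and the condensin subunit gene Ncapg2 (-0.31 ± 0.38).

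Factors known to act with cohesin at loop anchors and promoters were also without a call. Of 7 listed genes 6 were tested, with 12 probes, of which 0 passed in limma (0 at an unadjusted p under 0.05). The means of 11 of the 12 were above 0 and the median was 0.10. Yy1, a zinc finger factor of enhancer and promoter contacts, had the smallest p (0.48 ± 0.42, limma adjusted p = 0.707). It was followed by Ldb1, an adaptor of looping complexes, at 0.23 ± 0.28 and 0.23 ± 0.32 on its 2 probes. Next came the promoter factor Zfp143, whose probes opposed each other (0.19 ± 0.30 and -0.18 ± 0.27). The array medians of this list, 0.11, -0.08 and 0.40, were highest on replicate 3, as were those of the cohesin members.

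The array median of proliferation genes, transcribed in cycling cells, was highest on replicate 1, and that of the cohesin members on replicate 3. Single probes of both lists departed from this. Of 10 proliferation genes 9 were tested, with 12 probes, and 0 passed in limma (1 at an unadjusted p under 0.05). The array medians were 0.50, -0.24 and -0.37 on replicates 1, 2 and 3, against 0.07, 0.03 and 0.47 for the cohesin members. Pcna, the sliding clamp of DNA replication, was that 1 probe, at -0.55 ± 0.41, followed by Top2a, the topoisomerase of mitotic chromosomes, at 0.34 ± 0.66 and 0.25 ± 0.54. The kinase gene Aurkb stood at -0.21 ± 0.80.

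Markers of cell types were read beside these lists. Fibroblast markers had tested probes for 9 of 10 genes, and 13 of their 16 probes were above 0, with a median of 0.64 and 0 passing (6 at an unadjusted p under 0.05 in limma). The spot signal summed over all 17 matched probes, tested or not, was 268139 to 502984 units in the channel labelled SA1-null. It was 426822 to 953641 units in the channel labelled WT. Of 23 tested probes of macrophage and blood cell markers, from 16 genes, 10 passed, all lower in the channel labelled SA1-null. The filter kept 4 of the 23 through Cy5 alone, which favours their sign. The other 19, well above background with each dye on every array, included the 10 and had a median of -2.79. Summed over all 25 matched probes of the list, tested or not, the spot signal was 11468 to 34272.5 units in the channel labelled SA1-null. It was 207958 to 1311140 units in the channel labelled WT. In Cy5 every probe of that list with readings on all 3 arrays was well above background on at least 1, and in Cy3 1 probe was on none. Fewer cells of a type and less RNA per cell cannot be told apart in such cultures, and the part of these cells in the members' ratios was not tested. Epithelial, endothelial, erythroid and muscle markers had 8 tested probes among 19, and 0 passed (3 at an unadjusted p under 0.05, all epithelial).

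**Figure D4:**
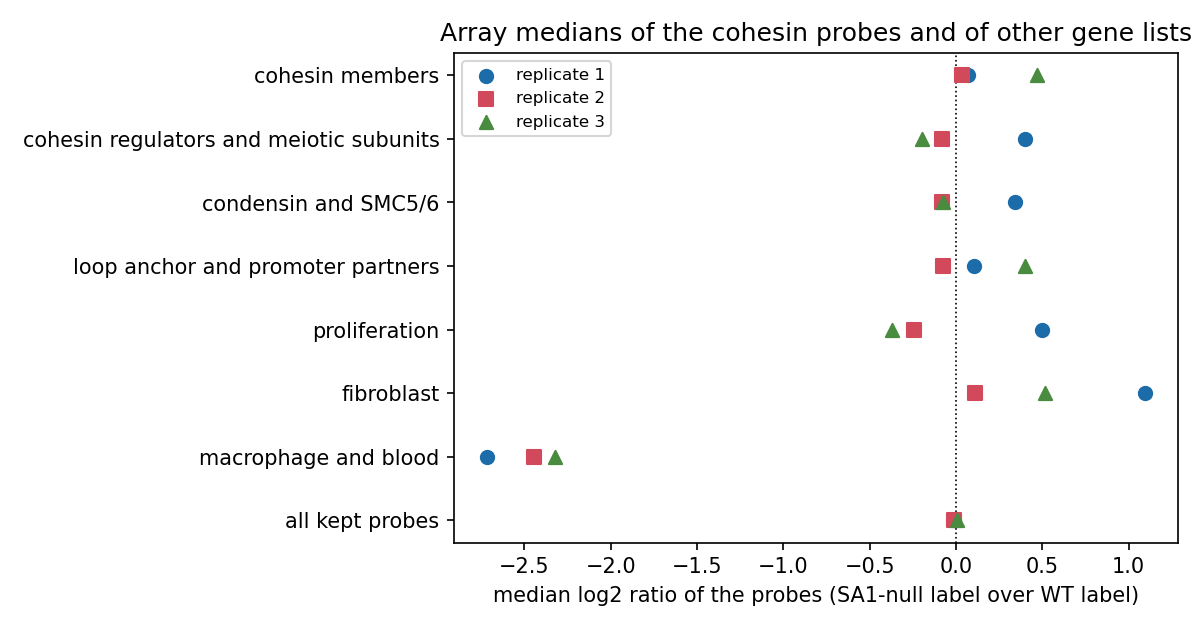
Median log2 ratio, SA1-null label over WT label (x axis), of the tested probes of each gene list on each of the 3 arrays. The cohesin members lie at 0.07, 0.03 and 0.47, the proliferation genes at 0.50, -0.24 and -0.37, and the macrophage and blood cell markers, 4 of them kept through Cy5 alone, between -2.72 and -2.32.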

How the data were processed

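Spot and local background median intensity values per dye came from the deposited scanner files, made by Agilent Feature Extraction 10.1.1.1 (replicate 1) and 10.7.3.1 (replicates 2 and 3), per the file headers. The authors' log10 ratio column in these files, Cy5 over Cy3 per the file headers, was not used. The deposited table of log2 values was made with limma, per the submitters' processing notes. Its scale and direction, Cy5 over Cy3, follow from correlations of 0.991, 0.986 and 0.997 with the ratios computed here. Its column medians were -0.02, -0.02 and -0.01, and its centring is not given in the sources used here.

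Signals were corrected by normexp (offset 50) and loess with limma 3.58.1 (R 4.3.3). Left out were control spots and outlier spots (116, 125 and 207 on the 3 arrays, none of a member). Probes well above background in the same channel on all 3 arrays were kept, 24019 in all, a reading of the filter settled after a first run had been seen. Each probe was tested against 0 with lmFit and eBayes, with Benjamini-Hochberg adjustment over all kept probes, and the code was tested on simulated data. RefSeq accessions named 23374 probes. The p-values measure the spread between arrays. The members and gene lists were chosen with earlier results of these data known. Named are the members, Stag1, and in each pathway list the genes that passed or else those with the smallest p. The 21 alternatives, 1 of them chosen after seeing the data, covered background, normalization, filters, probe rules, variance models, channels, slide, threshold and replicates. Figures were drawn with matplotlib 3.10.9.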

Additional observations from a re-analysis of the deposited data

How the results depend on the processing

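In all 21 alternatives 0 member probes passed. Of 230 member probe values under the alternatives 215 kept their sign, and 15 turned. Median centring in place of loess turned Smc3 probe 1 (-0.20), Wapl probes 1 and 2 (-0.34 and -0.13) and Pds5b (-0.27), and moved the members' median to -0.16. Array weights turned Smc1a probe 1 (0.011), Wapl probes 1 and 2 (-0.024 and -0.063) and Pds5b (-0.060). Averaging the probes of a gene turned Smc1a (0.20), Rad21 (0.081) and Stag2 (0.13) against their brighter probes. Leaving out 1 replicate gave -0.22 (without replicate 2) to 0.075 (without replicate 3) for Smc1a probe 1, -0.031 (without replicate 3) to 0.17 (without replicate 2) for Wapl probe 1, -0.013 (without replicate 1) to 0.33 (without replicate 2) for Wapl probe 2 and -0.013 (without replicate 3) to 0.12 (without replicate 2) for Pds5b. No sign turned for the others, which ran from 0.12 (without replicate 3) to 0.84 (without replicate 2) for Smc1a probe 2, 0.017 (without replicate 3) to 0.33 (without replicate 2) for Smc3 probe 1, 0.37 (without replicate 3) to 0.63 (without replicate 2) for Smc3 probe 2, -0.39 (without replicate 2) to -0.11 (without replicate 3) for Rad21 probe 1, 0.18 (without replicate 3) to 0.57 (without replicate 1) for Rad21 probe 2, -0.18 (without replicate 2) to -0.076 (without replicate 1) for Stag2 probe 1, 0.22 (without replicate 3) to 0.47 (without replicate 1) for Stag2 probe 2 and 0.057 (without replicate 3) to 0.74 (without replicate 1) for Mau2. The members' median was 0.21 without replicate 1, 0.32 without replicate 2 and 0.07 without replicate 3.

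The filter on dim probes can be read in 2 ways, and the one used was settled after a first run was seen. The first reading, an alternative chosen after seeing the data, asked for either channel on each array. Of its 24352 probes 70 passed, with 0 of 12 member probes and 2 pathway list probes among them.

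The array-wide count of 77 was 163 without background subtraction, 316 with an offset of 0, 399 with processed signals, 41 with median centring, 218 with scale normalization, 117 with both channels well above background and 0 with no filter. It was 48 for gene means, 150 with an intensity trend, 222 with array weights, 135 with separate channels, 2046 with slide as a term and 155 at a threshold of 0.1. Without replicate 1 it was 319, and without replicate 2 or 3 it was 0. The ratio pairs the cultures that share an array and a number. With no replicate block, channels as separate samples, 0 probes passed over all and 0 of the pathway lists. At an unadjusted p under 0.05 there were 716 probes without the block, 2443 with no filter, and 1686 and 949 without replicates 2 and 3.

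The 2 pathway list calls, both of Stag1, became 4 with processed signals and with slide as a term, and 1 with the brightest probe or the mean of a gene's probes. With scale normalization there was 1 call, Stag1 probe 3 (limma adjusted p = 0.0222), and probes 1 and 2 were lost at similar ratios (3.68 and 3.71, limma adjusted p = 0.0606 and 0.0749). They became 0 with no filter, and 0 to 3 without 1 replicate (0 without replicate 2 or 3). The cause was not tested. Brighter minus dimmer probe was below 0 in 18 of 18 alternatives for Smc1a, Smc3, Rad21 and Stag2, and in 16 of 18 for Wapl. The ranges were -1.06 to -0.05, -0.69 to -0.15, -0.91 to -0.28, -0.62 to -0.30 and -0.21 to 0.11. Dim-probe filter, trend and channel settings repeat the main difference and could not turn it. Signal over background was 1.86 to 3.00 in Cy3 and 1.97 to 4.02 in Cy5 at the median spot.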

Other observations

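In the authors' deposited table, which runs the other way round as Cy5 over Cy3, the member probes averaged between -0.59 and 0.26. The dimmer probes of Smc1a, Smc3, Rad21 and Stag2 stood at -0.59, -0.57, -0.50 and -0.49 in the authors' deposited table, and their brighter probes at 0.12, -0.28, 0.26 and 0.04.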
